A study of Rattus norvegicus with 12 samples.

Results

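Potassium channel subunits were examined in the forebrain of rats that had or had not been moved to a new environment. The members were all genes whose symbol starts with Kcn, taken from probe sets that the array annotation assigns to exactly 1 gene symbol. This gave 75 genes read by 126 probe sets, out of 14217 genes and 31042 transcript probe sets, and each gene was represented by its brightest probe set, the one with the highest mean over the 12 arrays. The animals were male Long Evans rats aged 6 weeks, housed one to a cage. The control group was 6 animals left in a standard laboratory cage. The exposed group was 6 animals that spent 3 hours in surroundings new to them, furnished with objects that differed in form and colour. Both groups shared strain, sex, age and single housing, and no genotype or drug was involved. Total forebrain RNA of each animal was measured on 1 Affymetrix expression array. The labels do not say which parts of the forebrain were dissected, and a bulk sample mixes neurons, glia and vessels.

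Potassium channels let potassium leave the cell and so bring the membrane back toward rest, set the firing threshold and limit how fast a neuron can fire. Voltage-gated channels are built of alpha subunits around a pore, of modulatory subunits that form no channel by themselves, and of auxiliary subunits that change gating and transport. Inward rectifiers and two-pore channels hold the resting potential, and further channels open with calcium or sodium inside the cell. Genes of this group are known to differ between cell types of the forebrain, such as fast-spiking interneurons, astrocytes and mural cells.

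Intensities are the deposited values in arbitrary linear units, and changes are exposed minus control on the log2 scale, given ± the standard error from limma fitted to all probe sets together. Values under an intensity of 53.8, the 20th percentile of all values, were set to that floor before log2. A gene counted as changed when its Benjamini-Hochberg adjusted p over 31042 probe sets was under 0.05. Intensities of different probe sets are not comparable as levels, so every comparison is between animals within a probe set. The median of an array lay between 235 and 245. Of the markers listed, 10 of 10 for neurons, 9 of 10 for cortex and hippocampus and 9 of 10 for striatum were measured, each above the floor on 1 or more arrays, and 0 of them passed the test. The mean log2 intensity of the cortex and hippocampus list was 10.06 ± 0.08 (SD, n = 6) in control and 9.99 ± 0.05 in exposed animals, with a median log2 change of -0.10. As a measure of RNA quality, the log2 excess of 3 prime over 5 prime signal of Gapdh and beta-actin averaged 0.39 ± 0.05 for control and 0.45 ± 0.07 for exposed animals, with p = 0.0823 in an exact permutation test (two-sided). A higher value of this measure means relatively less 5 prime signal, the direction of poorer RNA. In control animal 4 the markers of olfactory bulb and neuroblasts had a mean log2 intensity of 9.40, against 8.32 to 8.48 in the other control animals. Arrays of exposed animals 3 and 5 correlated least with the rest of their group (median 0.995 each, against 0.997 for the other exposed animals). For the members described one by one, values without a single animal are given where leaving out control 4, exposed 3 or exposed 5 moved them by over 1.5 times and they were over 0.05 in size.

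Promoter sequence was at hand for 52 of the 75 genes (58 windows of 250 bases before a RefSeq gene start, build GRCr8). Kcnv1, the member that rose, had no window. Both strands were searched for 3 motifs of factors that neuronal activity is known to engage, the cyclic AMP response element CRE (TGACGTCA), the AP-1 site (TGANTCA) and the EGR site (GCGNGGGCG). The letters of CRE were in 0 of the 58 windows, against 1.59% of all 33469 windows, those of AP-1 in 2 (3.45%, against 6.34%) and those of EGR in 5 (8.62%, against 4.29%). The windows of Kcna4, the member that fell, and of Kcnt1 and Kcnh5, which hold EGR letters, are shown so that the sequence can be read beside the changes given below. Capitals mark the EGR matches. The EGR windows counted include separate ones of the same gene, Kcnt1. They lie on chr3:114215086-114215335 (plus strand), chr3:29081089-29081338 (plus strand) and chr6:99643857-99644106 (minus strand).
Kcna4: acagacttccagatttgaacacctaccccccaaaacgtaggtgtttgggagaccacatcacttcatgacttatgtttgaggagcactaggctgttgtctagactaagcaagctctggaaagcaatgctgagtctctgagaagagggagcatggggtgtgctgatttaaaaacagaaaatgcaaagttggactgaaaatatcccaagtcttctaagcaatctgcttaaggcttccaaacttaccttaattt
Kcnt1: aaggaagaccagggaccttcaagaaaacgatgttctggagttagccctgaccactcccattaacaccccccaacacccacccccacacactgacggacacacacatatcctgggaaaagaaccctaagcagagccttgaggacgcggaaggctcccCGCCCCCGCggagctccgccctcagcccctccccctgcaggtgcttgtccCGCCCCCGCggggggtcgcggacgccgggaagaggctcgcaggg
Kcnh5: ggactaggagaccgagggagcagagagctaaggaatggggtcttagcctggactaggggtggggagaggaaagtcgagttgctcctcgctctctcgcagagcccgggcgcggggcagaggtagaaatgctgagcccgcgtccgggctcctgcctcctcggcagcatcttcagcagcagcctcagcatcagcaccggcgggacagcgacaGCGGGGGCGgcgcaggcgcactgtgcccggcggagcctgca
The Kcna4 window holds none of the 3 motifs. The log2 change of Kcnt1 was -0.0032 ± 0.04. That of Kcnh5, which was at the floor on 2 of 12 arrays, was -0.09 ± 0.08 (adjusted p = 0.770 in limma). A match describes the letters only.

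The potassium channel subunits as a group differed little between control and exposed animals. In limma 1 of the 75 genes rose, Kcnv1, and 1 fell, Kcna4. This is 2.67% of the members, against 3.46% of all genes (2.62% higher and 0.844% lower). Unadjusted p-values fell under 0.05 for 11 of the 75, or 14.7%, against 15.9% of all genes. The share called among the members was thus near that of all genes. The groups did not overlap in 2 of the 75, the same 2 genes, against 3.38% of all genes. The other members were 66 genes that were measured and did not pass and 7 that were at the floor on all 12 arrays. Among the 66 the log2 change ran from -0.22 to 0.24, and over the 68 measured members the median was -0.0012, against -0.0064 over all measured genes. In the same fit 14 of 15 immediate early genes, the transcription factors and synaptic genes switched on by neuronal activity, rose, with a median log2 change of 1.27. That list was chosen with earlier results of these data known, so its values are a description and no test.

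The precision of the 6 against 6 comparison bounds the change at the brightest probe set of each member in bulk forebrain RNA. For all 68 genes measured above the floor the 95% interval of the change lay within 1.5-fold in either direction, and for 49 of them (72.1%) it lay within 1.2-fold. Of all measured genes 98.2% and 83.4% had intervals that narrow. The widest intervals among members that did not pass were those of Kcnq3, up to 1.46-fold, and Kcna1, up to 1.41-fold. The number of arrays limits these intervals, each of which is for 1 gene and not adjusted for the number of genes. Dimmer probe sets are not covered by them, and at a dimmer Kcnab2 probe set the 95% interval ran from -0.72 to 0.28 on the log2 scale.

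**Figure D1:**
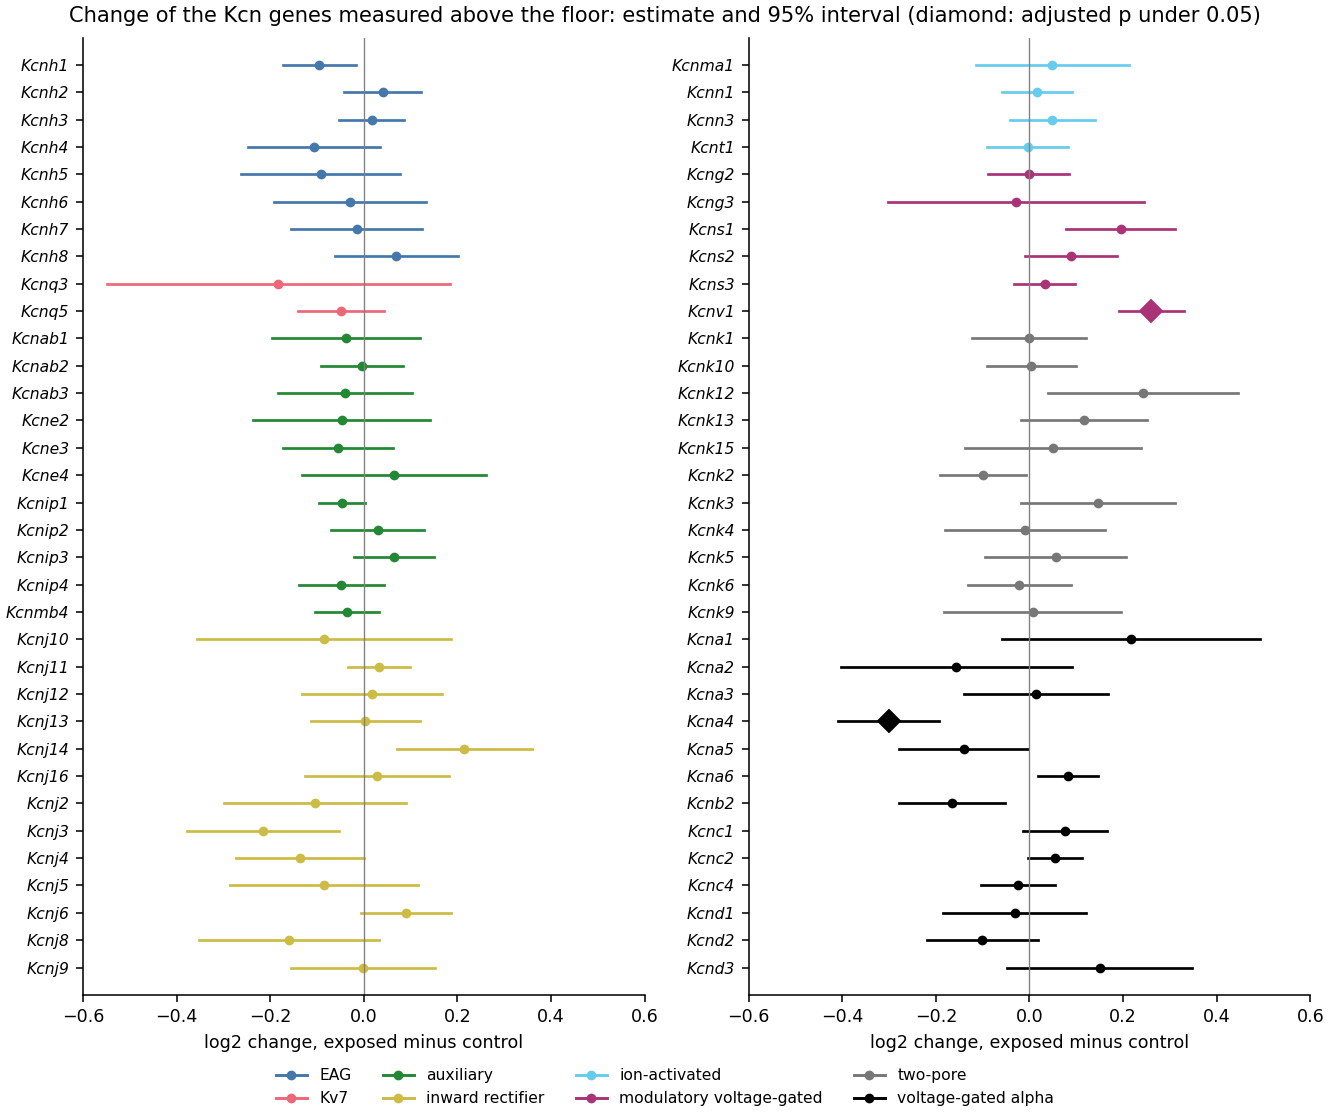
Log2 change, exposed minus control, of the 68 Kcn genes measured above the floor (points, estimate; lines, 95% interval; colours, families; diamonds, adjusted p under 0.05). Kcnv1 at 0.26 and Kcna4 at -0.30 are the diamonds, and the other 66 genes have estimates between -0.22 and 0.24.

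Kcnv1, a modulatory subunit that forms no channel alone and joins subunits of the Kcnb subfamily, rose. Its intensity was 2338, 2544 and 2627 (lowest, median and highest) in the control animals and 2847, 3048 and 3106 in the exposed animals. All 6 exposed animals lay above every control animal. The log2 change was 0.26 ± 0.03 (1.198-fold, adjusted p = 0.00121 in limma, 95% interval 0.19 to 0.33). Fitted separately, animals 1 to 3 of each group gave 0.26 (adjusted p = 0.248) and animals 4 to 6 gave 0.26 (adjusted p = 0.0962). The labels do not call these number sets a batch. The gene kept its call in all 27 alternative analyses, with a largest adjusted p of 0.0289. In such tissue samples more cells of a type and more RNA per cell cannot be told apart. The neuron marker list, with 10 of 10 genes measured, had a mean log2 intensity of 12.64 ± 0.02 (SD, n = 6) in control and 12.64 ± 0.04 in exposed animals. That of the cortex and hippocampus list was 10.06 ± 0.08 in control and 9.99 ± 0.05 in exposed animals. The part of either in the rise of Kcnv1 was not tested.

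Kcna4, an alpha subunit of the Shaker subfamily whose channels inactivate fast and carry A-type current in axons and terminals, fell. Its intensity was 571, 622 and 660 (lowest, median and highest) in the control animals and 460, 502 and 547 in the exposed animals, and all 6 exposed animals lay below every control animal. The log2 change was -0.30 ± 0.05 (1.23-fold lower, adjusted p = 0.00791 in limma, 95% interval -0.41 to -0.19). Animals 1 to 3 of each group gave -0.33 (adjusted p = 0.180) and animals 4 to 6 gave -0.27 (adjusted p = 0.381). The call was kept in 26 of 27 alternatives. Without control 4 and exposed animals 3 and 5 together the change was -0.25 and the adjusted p 0.0694. With the RNA quality measure as a covariate it was -0.30 (adjusted p = 0.0339). The cortex and hippocampus markers also had a lower mean in the exposed animals, while the neuron markers had a mean log2 intensity of 12.64 in both groups. The part of either in the fall of Kcna4 was not tested. Kcna4 and Kcnv1 were each read by 1 probe set, so no second probe set bears on either.

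**Figure D2:**
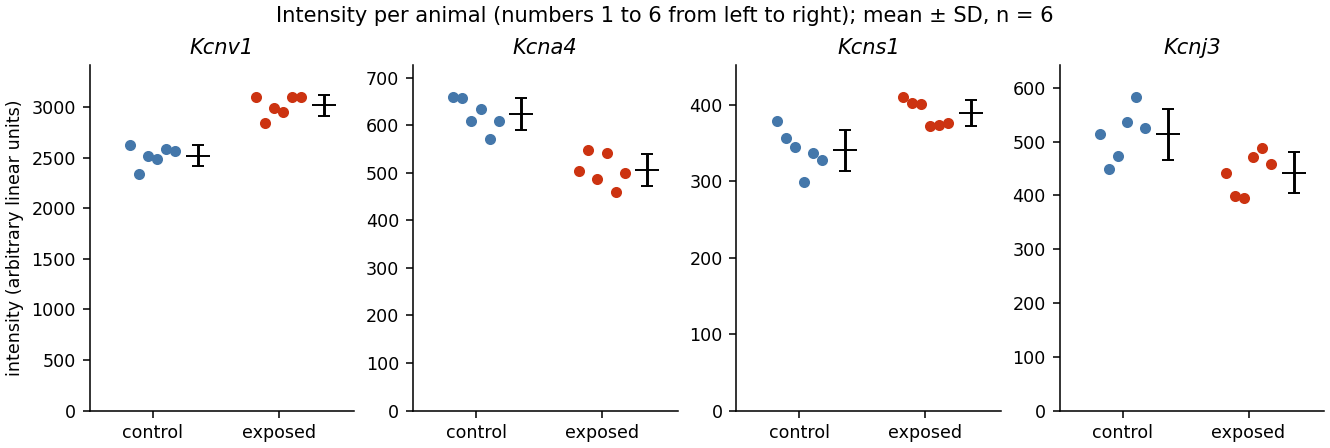
Intensity of 4 Kcn genes in each animal (points, animals 1 to 6 from left to right; bars, mean ± SD, n = 6; axes start at 0). For Kcnv1 and Kcna4 the groups do not overlap, while for Kcns1 and Kcnj3 3 of 6 exposed animals lie outside the control range.

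Kcns1, which like Kcnv1 acts by joining Kcnb subunits, was next after the 2 called genes by p. Its intensity was 299, 341 and 379 (lowest, median and highest) in control and 372, 388 and 411 in exposed animals, and the groups overlapped, with 3 of 6 exposed animals above the control range. The log2 change of 0.19 ± 0.05 did not pass (adjusted p = 0.0933 in limma). It passed without control animal 1 (adjusted p = 0.0419) and in a fit with a term for the number sets (adjusted p = 0.0125). Over the 27 alternatives the Kcns1 change ran from 0.14 to 0.23, with a largest adjusted p of 0.310 in limma. Kcns2 (0.09 ± 0.04, adjusted p = 0.453) and Kcns3 (0.03 ± 0.03, adjusted p = 0.804) were not past the threshold. Kcng2 and Kcng3 had log2 changes of -0.0013 and -0.03, and Kcnv2 was at the floor on all arrays. Kcnb2, a delayed rectifier subunit with which modulatory subunits assemble, had an intensity of 116, 121 and 125 (lowest, median and highest) in control and 95.5, 108 and 117 in exposed animals. Its change was -0.17 ± 0.05 (adjusted p = 0.149), with 4 of 6 exposed animals below every control animal.

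Among the 13 alpha subunits of the Kcna, Kcnb, Kcnc and Kcnd subfamilies, 1 fell and 0 rose, and 6 had a positive and 7 a negative change. Within the 6 Kcna genes the changes went both ways. Kcna6, a low-threshold axonal subunit, had an intensity of 1147, 1179 and 1293 (lowest, median and highest) in control and 1227, 1263 and 1318 in exposed animals. Its groups overlapped, with 1 exposed animal above every control animal, and the change of 0.08 ± 0.03 did not pass (adjusted p = 0.221 in limma). It passed without control animal 6 (adjusted p = 0.0347), while the mean of its probe sets had a change of 0.0067. Animals 1 to 3 gave 0.13 and animals 4 to 6 gave 0.03, and a dimmer Kcna6 probe set was at -0.06. Kcna5 had a change of -0.14 ± 0.06 (adjusted p = 0.364), with 4 of 6 exposed animals below every control animal. Without exposed animal 3, which had the largest 3 prime excess in the RNA quality measure, it was -0.09 ± 0.04. With that measure as a covariate it was -0.04. The measure averaged 0.39 in control and 0.45 in exposed animals, and its part in the Kcna5 value was not tested. Kcna3, best known from lymphocytes and microglia, was at 0.01 ± 0.07.

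For the axonal subunits Kcna1 and Kcna2, 1 exposed animal lay apart from the other animals. Kcna1 had an intensity of 1238 to 1369 in 5 exposed animals and 2123 in exposed animal 5, against 1083 to 1349 in control animals. Kcna2 was 3556 to 4123 in the other exposed animals and 2502 in exposed animal 5, against 3666 to 4444 in control animals. With all animals the log2 changes were 0.22 ± 0.12 for Kcna1 and -0.16 ± 0.11 for Kcna2, and without exposed animal 5 they were 0.10 ± 0.05 and -0.05 ± 0.05. None of these 4 values passed in limma (adjusted p 0.531 to 0.858).

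The Kcnc subunits, which give the fast repolarization of fast-spiking interneurons, and the Kcnd subunits, which carry the A-type current of dendrites, had no member that passed. The log2 changes of Kcnc1, Kcnc2 and Kcnc4 were 0.08, 0.05 and -0.02, and those of Kcnd1, Kcnd2 and Kcnd3 were -0.03, -0.10 and 0.15. Without exposed animal 5 Kcnc1 was at 0.04 ± 0.03 and Kcnd3 at 0.09 ± 0.07. Kcnc2 went from 3186 ± 140 (SD, n = 6) in control to 3305 ± 40.6 in exposed animals (adjusted p = 0.423 in limma). Markers of GABA interneurons, with 9 of 10 genes measured, had a mean log2 intensity of 10.74 ± 0.09 in control and 10.71 ± 0.04 in exposed animals, and 0 of 9 passed. Kcnd2 was 1663 in exposed animal 5 and 2008 to 2088 in the other exposed animals, against 2036 to 2237 in control animals. Without that animal its change was -0.05 ± 0.03 (adjusted p = 0.474) in place of -0.10 ± 0.05.

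Exposed animal 5 also stood apart at other probe sets. Relative to the median of the other 5 exposed animals, 8 Kcn probe sets of 5 genes lay over 0.5 away on the log2 scale in this animal, while in each of the other 11 animals 0 to 3 did. The 8 read Kcna1, Kcna2, Kcnab2, Kcnc2 and Kcnd2. The median distance over all Kcn probe sets was 0.076 in exposed animal 5 and larger, at 0.095, in exposed animal 3. The count was not made for probe sets of other genes, so it does not set the Kcn genes apart in this animal. At a dimmer Kcnc2 probe set exposed animal 5 had an intensity of 351, against 721 to 808 in the other exposed animals and 691 to 792 in control animals. At the brightest Kcnc2 probe set it had 3242, against 3272 to 3350 in the others. The RNA quality measure was 0.44 in this animal, within the range of the other exposed animals (0.39 to 0.59). These probe sets were chosen after their values were seen.

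**Figure D3:**
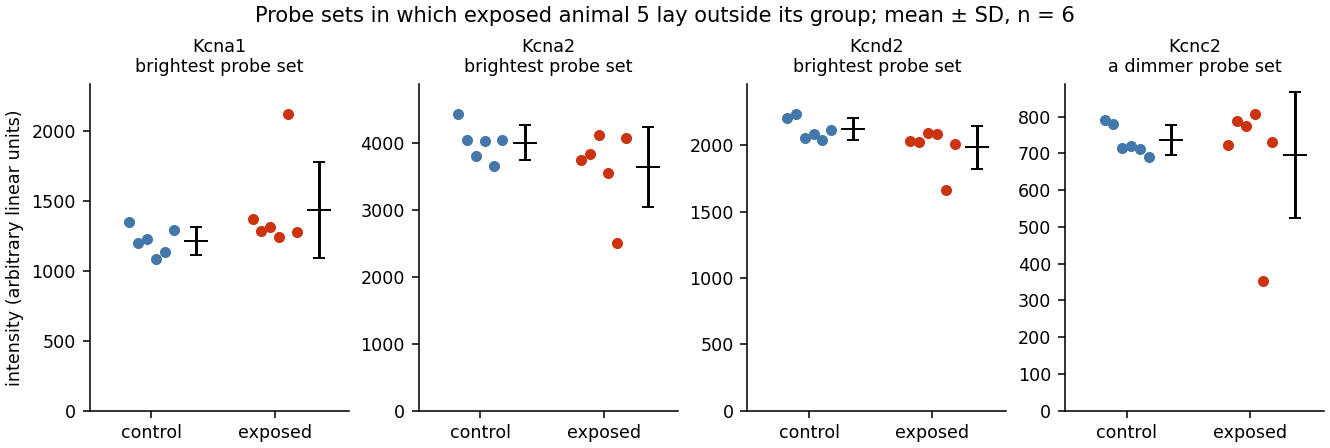
Intensity in each animal of probe sets of Kcna1, Kcna2, Kcnd2 and Kcnc2 (points, animals 1 to 6 from left to right; bars, mean ± SD, n = 6; axes start at 0). Exposed animal 5 lies above its group for Kcna1, at 2123, and below it for the other 3 genes.

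The channels that hold back repeated firing gave no call. Kcnq3 and Kcnq5 carry the M current, which muscarinic receptors close. Kcnq5 had a change of -0.05 ± 0.04 (adjusted p = 0.784 in limma), and Kcnq3 one of -0.18 ± 0.17 with the largest standard error of all members, 257 to 493 in control and 251 to 407 in exposed animals. Without control 4 Kcnq3 was at -0.28, and without control 5 it was at -0.09. A dimmer Kcnq3 probe set had a change of -0.11 ± 0.06 (adjusted p = 0.463 in limma), with 4 of 6 exposed animals below every control animal. Kcnq1, known from heart and epithelia, was at the floor on all arrays. Of the 8 Kcnh genes, the ether-a-go-go family, 3 changes were positive and 5 negative. Kcnh1 had an intensity of 949 ± 31.4 (SD, n = 6) in control and 890 ± 47.4 in exposed animals, with 5 of 6 exposed animals below every control animal, and did not pass (-0.09 ± 0.04, adjusted p = 0.252). Kcnh3, a forebrain member, was at 0.02 ± 0.03.

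Channels opened by ions inside the cell gave no call among 5 genes, with a median absolute log2 change of 0.02, against 0.04 over all genes. Both medians include genes at the floor on all arrays, here Kcnn4, whose change is 0 by the floor. Kcnma1, the large-conductance calcium-activated channel, was at 0.05 ± 0.07, its neuronal partner Kcnmb4 at -0.04 ± 0.03, the small-conductance channels Kcnn1 and Kcnn3 at 0.02 ± 0.03 and 0.05 ± 0.04, and the sodium-activated channel Kcnt1 at -0.0032 ± 0.04. Kcnn4 and Kcnmb1, known from blood cells and smooth muscle, were at the floor on all arrays.

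Among the 15 inward rectifier genes none passed, with 6 positive and 7 negative changes and 2 genes (Kcnj1 and Kcnj15) at the floor on all arrays. Kcnj3, a subunit of the channel that G protein beta-gamma subunits open, had an intensity of 448, 519 and 584 (lowest, median and highest) in control and 394, 449 and 489 in exposed animals. The groups overlapped, with 3 of 6 exposed animals below every control animal, and the change of -0.22 ± 0.07 did not pass (adjusted p = 0.193 in limma). Animals 1 to 3 gave -0.22 and animals 4 to 6 gave -0.21, and the gene passed in the fit with a term for the number sets (adjusted p = 0.0275). Over the 27 alternatives the Kcnj3 change ran from -0.25 to -0.12, with a largest adjusted p of 0.544 in limma. A dimmer Kcnj3 probe set had a change of -0.21 ± 0.11 and the dimmest one -0.08 ± 0.07. The partner subunit Kcnj6 was at 0.09 ± 0.04 (adjusted p = 0.423), Kcnj9 at -0.0010 ± 0.07 and Kcnj5 at -0.09 ± 0.09 (-0.13 without exposed animal 3).

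Kcnj14, a strong inward rectifier, had an intensity of 221, 259 and 274 (lowest, median and highest) in control and 272, 288 and 334 in exposed animals, with 4 of 6 exposed animals above every control animal (0.21 ± 0.07, adjusted p = 0.140 in limma). Over the 27 alternatives the Kcnj14 change ran from 0.13 to 0.24, with adjusted p from 0.0670 to 0.459 in limma. Kcnj4, another strong inward rectifier, had a change of -0.14 ± 0.06 (adjusted p = 0.383), with -0.02 in animals 1 to 3 and -0.25 in animals 4 to 6. The dimmer Kcnj4 probe set, with a mean intensity of 629 against 641 at the brightest, had a change of -0.06 ± 0.05. Kcnj10, the potassium-buffering channel of astrocytes, was at -0.09 ± 0.12 (-0.0073 without exposed animal 3 and -0.18 without exposed animal 2), and its partner Kcnj16 at 0.03 ± 0.07. Of 9 astrocyte markers measured 0 passed. The ATP-sensitive channel genes were Kcnj11, of neurons, at 0.03 ± 0.03, and Kcnj8, of mural cells, at -0.16 ± 0.09 (adjusted p = 0.507). Endothelial and mural markers had a mean log2 intensity of 9.16 ± 0.06 (SD, n = 6) in control and 9.05 ± 0.04 in exposed animals, with 1 of 11 lower and 0 higher. Their part in the Kcnj8 value was not tested. Kcnj13, of choroid plexus, was at 0.0029 ± 0.05.

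Of the 11 two-pore genes, which code for leak channels, none passed, with 7 positive and 4 negative changes. Kcnk12 had the largest change among members that did not pass. Its intensity was 192, 206 and 246 (lowest, median and highest) in control and 196, 261 and 278 in exposed animals, so that 4 of 6 exposed animals were higher than any control animal and 1 was near the lowest of them. The change was 0.24 ± 0.09 (adjusted p = 0.255 in limma), and without exposed animal 6 it was 0.31 and passed (adjusted p = 0.0488). Over the 27 alternatives the Kcnk12 change ran from 0.21 to 0.31, with a largest adjusted p of 0.471 in limma. Animals 1 to 3 gave 0.35 and animals 4 to 6 gave 0.13. Kcnk2, a channel opened by stretch and lipids, had a change of -0.10 ± 0.04 (adjusted p = 0.325), and the acid-sensitive channels Kcnk3 and Kcnk9 had changes of 0.15 ± 0.07 (adjusted p = 0.454) and 0.0067 ± 0.09. For Kcnk3 animals 1 to 3 gave 0.26 and animals 4 to 6 gave 0.03. The dimmer Kcnk3 probe sets were at -0.03 ± 0.06 and 0.11 ± 0.05, and the dimmer Kcnk2 probe set was at -0.0046 ± 0.06. Kcnk13, known from microglia, was at 0.12 ± 0.06 (adjusted p = 0.483), while 0 of 10 microglia markers passed.

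Auxiliary subunits had no member with an unadjusted p under 0.05 among 13 genes, of which 3 changes were positive and 8 negative and 2 genes were at the floor. Of all genes 15.9% had such a p and 41.4% a positive change, and a difference from that share was not tested. The calcium-binding partners of Kcnd channels were at -0.05 ± 0.02 (Kcnip1), 0.03 ± 0.05 (Kcnip2), 0.06 ± 0.04 (Kcnip3, 0.04 without exposed animal 5) and -0.05 ± 0.04 (Kcnip4). The beta subunits of Kcna channels were at -0.04 ± 0.07 (Kcnab1), -0.0032 ± 0.04 (Kcnab2) and -0.04 ± 0.06 (Kcnab3). Kcne4 was at 0.06 ± 0.09 (0.0033 without exposed animal 5), and Kcne1 was at the floor on all arrays.

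Further probe sets were available for 31 of the genes. Among the 51 dimmer Kcn probe sets, 9 of which were at the floor on all arrays, 0 passed in limma and 2 had an unadjusted p under 0.05 (3.92%). Of all 31042 probe sets 2.56% passed and 13.2% had such a p. The difference between a dimmer and the brightest probe set of its gene was fitted for 6609 pairs, of which 0.908% passed. Of the 51 Kcn pairs 0 passed and 2 had an unadjusted p under 0.05, one of Kcna6, whose dimmer probe set was at the floor on all arrays, and one of Kcnip2. Such p-values were found for 9.53% of all pairs. For Kcnab2 the dimmer probe sets were at 0.27, -0.11 and -0.22 beside -0.0032 at the brightest one, with standard errors of 0.12, 0.16 and 0.23. For Kcnc2 4 of 5 dimmer probe sets had changes of -0.19 to -0.13 and the brightest one 0.05. Without exposed animal 5 these 4 were at 0.06, -0.07, -0.21 and -0.02, so that 1 turned its sign, and the brightest one was at 0.06. The Kcnab2 values without that animal were 0.20, -0.04 and -0.09.

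**Figure D4:**
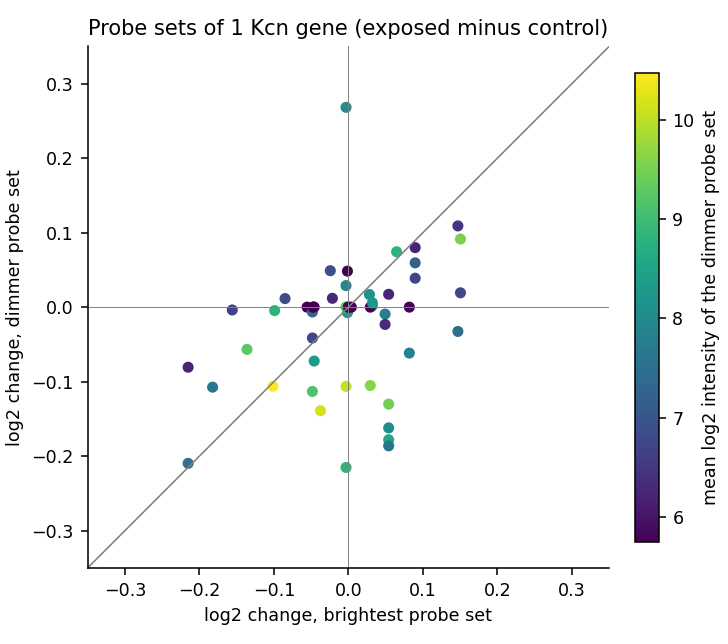
Log2 change at each of the 51 dimmer Kcn probe sets (vertical) against that at the brightest probe set of the same gene (horizontal); colour gives the mean log2 intensity of the dimmer probe set and the diagonal marks equal changes. No pair differed past the threshold, and the highest point, at 0.27, is a dimmer Kcnab2 probe set.

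Proteins that bind, cluster or regulate potassium channels had about as few calls. Of 26 partner genes, 1 of them at the floor on all arrays, 1 rose and 0 fell (3.85%, against 3.46% of all genes). The one that rose was Nedd4l, a ubiquitin ligase that acts on channels and transporters. Its intensity was 748, 800.5 and 860 (lowest, median and highest) in control and 847, 942 and 968 in exposed animals, with 5 of 6 exposed animals above every control animal (0.20 ± 0.04, 1.15-fold, adjusted p = 0.0245 in limma). Of 3 HCN channel genes, 12 sodium channel (Scn) genes and 24 calcium channel (Cacn) genes, 0 passed, while 1 Scn and 3 Cacn genes had an unadjusted p under 0.05. The median log2 changes were -0.05, -0.0040 and 0.0053. No test of a difference between these groups and the potassium channel subunits was made.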

How the data were processed

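Total forebrain RNA of 12 rats, 6 per group, was measured on 1 array each. The authors deposited a linear intensity for every probe set on each array. Background correction, probe summary and normalization by the authors are not given in the sources used here. Array medians differed by 0.06 on the log2 scale, so no further normalization was done.

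Intensities were raised to the 20th percentile (53.8) and transformed to log2. The group was fitted to 31042 probe sets with limma 3.58.1 in R 4.3.3 (lmFit, eBayes with a mean-variance trend, Benjamini-Hochberg), with 57 array control probe sets left out. The fit was also run on simulated data with known changes and independent noise, as a check of the code. That check does not bear on any gene called here. Symbols came from the platform annotation through Entrez IDs in the RefSeq table, which changed 0 of them and left 68 IDs unmatched. Genes named are those that passed, the 15 with the next smallest p, the brightest of each subfamily and the partner or channel genes that passed; others were named after their values were seen to account for each family. The members and lists were chosen with earlier results of these data known. Replicates are separate animals by their labels. Same-numbered animals of the 2 groups did not deviate together in every pair, so numbers were not taken as pairs. Alternatives are named with their effect in the closing section. Promoters are RefSeq sequences of GRCr8, and 3 prime minus 5 prime differences are those of Gapdh and beta-actin control probe sets.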

Additional observations from a re-analysis of the deposited data

Results flagged for a closer look

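In 13 of 136 sets of 6 animals the highest or lowest animal lay far from the nearest other one, by the Dixon test at 95%. Chance alone gives about 1 in 20, or 6.8. These sets belong to 12 Kcn genes at their brightest probe set, and each value is an intensity as deposited. The test itself used log2 values after the floor. The floor raised 5 of 12 values of Kcnh8 and 1 of 12 of Kcnj2, which enlarged their gaps relative to the range. Both sets passed the test only with that floor. Exposed animal 5 was the highest for Kcna1 (2123, against 1238 to 1369 in the others of its group) and Kcnt1 (823, against 702 to 745 in the others of its group). Exposed animal 5 was the lowest for Kcna2 (2502, against 3556 to 4123 in the others of its group) and Kcnd2 (1663, against 2008 to 2088 in the others of its group). Exposed animal 3 was the highest for Kcnj2 (79.6, against 52.5 to 61.4 in the others of its group) and Kcnk5 (95.1, against 74.9 to 77.2 in the others of its group). Exposed animal 3 was the lowest for Kcnj9 (256, against 318 to 348 in the others of its group) and Kcnk2 (1146, against 1260 to 1325 in the others of its group). Exposed animal 2 was the highest for Kcnj16 (509, against 393 to 432 in the others of its group). Control animal 1 was the highest for Kcnh1 (1009, against 922 to 952 in the others of its group). Control animal 4 was the lowest for Kcnt1 (688, against 744 to 774 in the others of its group). Control animal 5 was the highest for Kcnh8 (61.7, against 47.9 to 55.5 in the others of its group) and Kcnj8 (111, against 87.5 to 93.8 in the others of its group). The RNA quality measure was 0.59 in exposed animal 3, the largest 3 prime excess of the 12 animals, whose other values ran from 0.33 to 0.44. Its part in the values of that animal was not tested.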

How the results depend on the processing

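Kcnv1 kept its direction and call in all 27 alternatives (log2 change 0.24 to 0.28), and Kcna4 in all but 1 (-0.33 to -0.25). The count of Kcn genes that rose was 1 to 2 with 1 animal left out and 2 when number sets entered the fit; the second genes were Kcns1 (without control 1, and with number sets), Kcna6 (without control 6) and Kcnk12 (without exposed 6). The count that fell was 1 in every fit with 1 animal left out, 2 with the number sets, 2 with the replicate block (Kcnj3 added) and 0 without control 4 and exposed 3 and 5 together, an alternative chosen after seeing the data. With the block Kcnj3 had an adjusted p of 0.0119. The replicate block called 359 probe sets higher and 76 lower, in place of 610 and 186. Whether the numbers pair the animals is not known from the labels. The correlation of the deviations of same-numbered animals ran from -0.08 to 0.16 over 6 numbers, and in 2 of 6 the own number correlated best. These values cannot exclude a pairing. Lower probe sets numbered 314 with array weights, 72 with the RNA quality covariate, 82 without control 4 and exposed 3 and 5, and 103 to 182 with 1 animal left out (103 without control 3, 112 without control 5, 117 without control 6, 104 without exposed 1). Higher ones then numbered 451 to 622. Among members near 0 the sign turned, with no call. Kcnc2 was at -0.13 without probe sets named _s_at, _x_at or _a_at (the probe set that turned to 0.06 without exposed 5, a fit added after seeing the data) and at -0.10 as the mean of its probe sets, Kcnip4 at 0.00031 with the RNA quality covariate, and Kcng2 and Kcnt1 at 0.013 and 0.0086 as the mean of their probe sets. Kcng2 was at 0.012 and Kcnh3 at -0.023 without control 4 and exposed 3 and 5. With 1 animal left out, Kcng2 ran from -0.026 to 0.023, Kcnt1 from -0.032 to 0.013, Kcnh3 from -0.0034 to 0.030 and Kcnn1 from -0.0061 to 0.028. The cause of these shifts was not tested. Kcnb2 gave no value with the floor at the 40th percentile and, with Kcna5, none without the 40% dimmest probe sets. The pairs of probe sets gave 0 calls with floors at the percentiles 10 and 40 and with each animal left out. Signal near the floor limits 7 members at it on all arrays and 3 on some.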
